A study of Mus musculus with 16 samples.

Results

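Histone demethylases remove methyl groups from histone lysines, and 8 of their genes were described here by the ChIP-seq peaks that lie at them in mouse CD8+ T cells: Kdm5a, Kdm5b, Kdm2a, Kdm2b, Kdm4a, Kdm4c, Kdm6b and Kdm3a. They are 8 of 26180 genes with a curated RefSeq transcript on mm10, and were chosen by name with earlier results of these data known. Every called peak that overlapped the gene body or the 20 kb on either side of it was taken. The cells came from the spleens of OT1 mice, in which CD8+ T cells express a transgenic T-cell receptor specific for ovalbumin. Stimulation with anti-CD3 and anti-CD28 lasted 48 h and expansion in IL-2 a further 3 days. Veh cells received vehicle and GSK cells received 0.5 μM GSK2879552, a catalytic inhibitor of the H3K4 demethylase LSD1, throughout activation and expansion. The 16 samples were 12 ChIP libraries, 1 per treatment for each of RNA polymerase II (Pol II), LSD1, H3K27ac, H3K4me1, H3K4me2 and H3K4me3, and 4 inputs, for which no peak list was used here. Each library had 1 list of peaks, so no difference between Veh and GSK has a replicate check and no test was run. The labels do not say how many mice gave the cells.

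H3K4me3 marks active promoters, H3K4me1 is commonest at enhancers, H3K4me2 is found at both, and H3K27ac marks active promoters and enhancers. LSD1 (encoded by Kdm1a) removes the methyl groups of H3K4me1 and H3K4me2 and cannot act on H3K4me3. KDM5A and KDM5B are Jumonji enzymes that remove H3K4me3 and H3K4me2. KDM2A and KDM2B bind CpG-rich DNA through a CXXC zinc finger and act on H3K36 methylation, KDM4A and KDM4C act on H3K9 and H3K36 methylation, KDM6B (also JMJD3) removes H3K27me3, and KDM3A removes H3K9me2 and H3K9me1. The H3K4 marks mapped here are thus substrates of LSD1 and of the KDM5 enzymes.

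The library labels were compared with T-cell genes before the members were read. H3K4me3 peaks were called at the transcription start sites (TSS) of Cd8a, Cd8b1, Cd3e, Cd3d and Cd3g in both treatments, and none at Cd79a, Ms4a1, Cd4, Lyz2, Csf1r or Ncr1 in either. Trac could not be matched in the annotation. The lists held 2751 to 40272 peaks. The most unequal pair was H3K27ac, with 7410 peaks in Veh and 2751 in GSK. The Veh H3K27ac library was also the far deeper of the pair by the read statistics of the study. Reads behind single peaks were not in the lists, so the absence of a peak means that none was called at that library's depth.

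A few distal LSD1 sites, some called in 1 treatment only and some shared, are shown as the mm10 plus strand from 100 bases before to 100 bases after the summit. Capitals mark matches, on either strand, to 5 motifs of lymphocyte factors: TGTGGT (RUNX), CCGGAA (ETS), AAATCA (GFI1), CACCTG (the E-box bound by ZEB proteins) and TGANTCA (AP-1). Distal here means outside the TSS ± 1 kb window of every RefSeq gene. The 3 strongest distal LSD1 peaks of Veh with no overlapping GSK peak were:
Kdm5a downstream flank, chr6:120453227-120453427: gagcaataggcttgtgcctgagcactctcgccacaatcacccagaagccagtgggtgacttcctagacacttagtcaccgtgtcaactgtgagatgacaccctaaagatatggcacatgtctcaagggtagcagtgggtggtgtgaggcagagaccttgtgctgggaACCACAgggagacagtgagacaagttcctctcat
Kdm2b intron 12, chr5:122894025-122894225: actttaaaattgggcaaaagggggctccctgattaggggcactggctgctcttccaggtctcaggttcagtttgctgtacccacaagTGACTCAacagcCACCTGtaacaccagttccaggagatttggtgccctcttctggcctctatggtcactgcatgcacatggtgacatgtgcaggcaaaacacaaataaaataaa
Kdm4c intron 2, chr4:74264575-74264775: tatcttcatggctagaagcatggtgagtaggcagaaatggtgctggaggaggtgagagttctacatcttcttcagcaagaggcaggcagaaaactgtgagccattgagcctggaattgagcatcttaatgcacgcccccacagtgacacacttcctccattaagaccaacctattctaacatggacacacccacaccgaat

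The Kdm5a window held 1 RUNX match, the Kdm2b window held 1 AP-1 match and 1 E-box match, and the Kdm4c window held none of the 5 motifs. Among the windows of all 12563 distal LSD1 peaks of Veh, 32.1% held the RUNX motif, 13.0% the AP-1 motif and 16.9% the E-box. The matches are a description of letters and not of binding. Repeats, as soft-masked in the assembly, made up 65.2% of the Kdm2b window, 49.8% of the Kdm4c window and none of the Kdm5a window, and 22.4% of all the Veh windows were mostly repeat.

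The strongest distal LSD1 peak called in both treatments was upstream of Kdm3a, and 3 further shared sites, chosen after their values were seen as examples of LSD1 at or beside distal H3K4me3 peaks, were upstream of Kdm5b and inside Kdm6b and Kdm2a:
Kdm3a upstream, chr6:71638403-71638603: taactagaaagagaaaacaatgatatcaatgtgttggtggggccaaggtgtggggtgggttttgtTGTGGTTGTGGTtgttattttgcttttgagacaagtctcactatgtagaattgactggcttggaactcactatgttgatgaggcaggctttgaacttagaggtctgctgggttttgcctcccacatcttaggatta
Kdm5b upstream, chr1:134556266-134556466: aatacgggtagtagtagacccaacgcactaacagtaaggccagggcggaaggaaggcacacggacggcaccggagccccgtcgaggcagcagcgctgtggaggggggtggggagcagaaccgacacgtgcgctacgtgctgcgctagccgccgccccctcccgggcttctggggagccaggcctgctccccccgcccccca
Kdm6b intron 2, chr11:69410903-69411103: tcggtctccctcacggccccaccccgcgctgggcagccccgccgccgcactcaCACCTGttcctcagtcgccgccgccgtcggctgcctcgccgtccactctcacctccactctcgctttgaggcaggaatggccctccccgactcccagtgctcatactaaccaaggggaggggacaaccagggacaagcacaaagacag
Kdm2a intron 12, chr19:4332769-4332969: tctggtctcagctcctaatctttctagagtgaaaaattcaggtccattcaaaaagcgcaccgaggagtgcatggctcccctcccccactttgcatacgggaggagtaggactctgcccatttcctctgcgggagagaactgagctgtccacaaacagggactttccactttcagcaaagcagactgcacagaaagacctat

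The Kdm3a window held 2 adjacent RUNX matches within sequence that was 64.2% repeat and had no CpG dinucleotide. The windows at Kdm5b and Kdm6b were CpG-rich, with 18 and 16 CpG dinucleotides, against a median of 2 over all distal Veh windows. Of these 2 windows, the Kdm6b one held 1 E-box match and the Kdm5b one held none of the motifs. The Kdm2a window had 4 CpG dinucleotides and no match.

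The strongest distal LSD1 peak found in GSK alone lay at the 5′ end of Kdm6b and had 11 CpG dinucleotides, against a median of 3 over the 9991 distal windows of GSK, and no match to the 5 motifs:
Kdm6b 5′ end, chr11:69418743-69418943: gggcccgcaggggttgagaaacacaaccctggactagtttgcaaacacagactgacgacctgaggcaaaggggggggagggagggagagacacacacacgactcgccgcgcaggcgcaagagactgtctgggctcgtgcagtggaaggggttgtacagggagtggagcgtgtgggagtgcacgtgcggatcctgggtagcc

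The 8 loci, which span 946.745 kb with their flanks, held 202 peaks over the 12 lists. Of these, 62 lay at a TSS window of the member itself, 50 at the TSS window of a neighbouring gene and 90 were distal. Density differed widely between members. Kdm6b, the shortest gene, had 33 peaks in 61.9 kb, or 53.3 per 100 kb, and Kdm4c, the longest, had 7 peaks in 203.4 kb, or 3.44 per 100 kb. Summed over the loci, the length covered by peaks differed little between Veh and GSK for LSD1 (14.2 kb and 14.9 kb), H3K4me1 (22.7 kb and 25.3 kb), H3K4me2 (10.4 kb and 9.51 kb), H3K4me3 (31.0 kb and 30.2 kb) and Pol II (4.88 kb and 4.34 kb). H3K27ac covered 7.92 kb in Veh and 2.01 kb in GSK, with a mean peak width of 989.8 bp in Veh and 402 bp in GSK. The whole H3K27ac list also covered less in GSK, with 4.85 Mb in Veh and 1.38 Mb in GSK. The lower H3K27ac coverage was thus not particular to these loci. The whole H3K4me2 list covered 12.04 Mb in Veh and 6.50 Mb in GSK, a wider difference than at the loci. The peaks at neighbouring promoters belonged to Ccdc77 and Il17ra at Kdm5a, Mgat4e and Syt2 at Kdm5b, Grk2 at Kdm2a, Rnf34, Gm33044 and A930024E05Rik at Kdm2b, St3gal3 at Kdm4a, and Naa38 and Cyb5d1 at Kdm6b.

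At the promoters, defined as TSS ± 1 kb, 7 of 8 members had an LSD1 peak in Veh and the same 7 had one in GSK, all but Kdm6b. Among all genes, 36.3% had an LSD1 promoter peak in Veh and 41.6% in GSK. Counted per gene, promoter LSD1 was called in Veh only at 4.44% and in GSK only at 9.74% of all genes. None of the 8 members was in either class, and with shares this small that says little. Counted as single peaks, LSD1 at member promoters had 7 in Veh and 10 in GSK, and the same count over all genes was not made. The additional GSK peaks were at Kdm2a and Kdm2b, at promoters or starts described below. By fold the Kdm2a one was at percentile 7.98 of the GSK LSD1 list. Those at Kdm2b were at percentiles 5.43 and 39.6, the latter also in the promoter window of A930024E05Rik. The same 7 members had H3K4me3 promoter peaks in both treatments, and among the 12997 genes of which that was true the LSD1 shares were 69.5% in Veh and 79.0% in GSK. In the same 12997 genes H3K4me2 was called at 73.5% in Veh and 53.2% in GSK, H3K4me1 at 49.2% and 59.5%, H3K27ac at 41.0% and 17.2%, and Pol II at 58.0% and 49.2%.

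**Figure D1:**
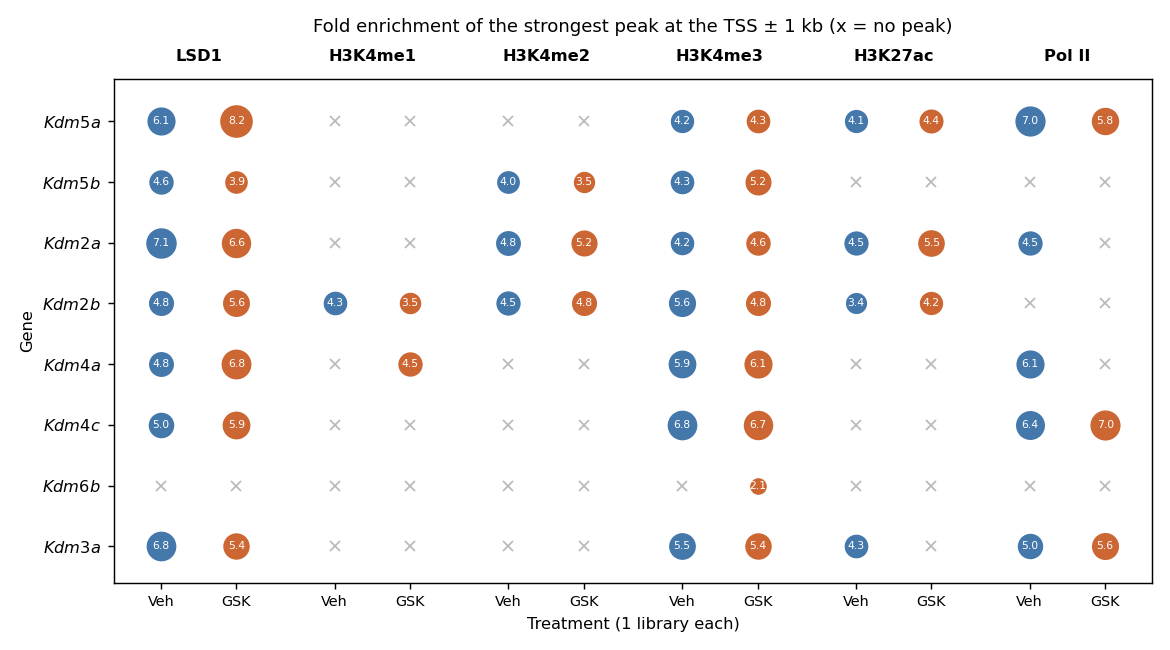
Fold enrichment over input of the strongest peak at the TSS ± 1 kb of each gene (rows), for each antibody and treatment (columns, 1 library each); dot area is proportional to the fold enrichment, the number in the dot is its value, and x means that no peak was called. LSD1 and H3K4me3 fill nearly every row in both treatments, and Kdm6b has a single weak H3K4me3 peak in GSK.

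H3K4me3 was called at 7 of 8 member promoters in Veh and at 8 of 8 in GSK, beside 50.0% and 51.1% of all genes. The additional promoter in GSK was that of Kdm6b, with a weak peak of 2.13-fold enrichment and a −log10 p of 8.33, a change of presence seen at 1.47% of genes. The difference ended with a TSS window of 2.5 kb or with predicted transcripts added (8 promoters in each treatment) and with GENCODE M21 (7 in each). H3K4me2 was called at the same 3 promoters, Kdm5b, Kdm2a and Kdm2b, in both treatments, beside 39.0% of genes in Veh and 28.2% in GSK. None of the 3 was without it in GSK, while 12.8% of all genes had the peak in Veh only, which is 32.8% of the genes with a Veh peak. H3K4me1 was scarce at these promoters: Kdm2b in Veh, and Kdm2b and Kdm4a in GSK, beside 30.3% and 36.8% of genes. The Kdm4a peak, 4.55-fold, was found in GSK only, as at 9.85% of genes. It was not counted with a window of 500 bp (1 member in each treatment), and with GENCODE M21 the order turned, with 4 members in Veh and 3 in GSK.

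Promoter H3K27ac was called at Kdm5a, Kdm2a, Kdm2b and Kdm3a in Veh and at the first 3 of these in GSK, beside 20.5% and 8.58% of genes. Kdm3a had a peak of 4.30-fold and −log10 p 15.2 in Veh only, as did 12.3% of all genes, which is 59.8% of those with a Veh peak. When the Veh list was shortened to its strongest peaks so that both H3K27ac lists were of equal length, Veh too had 3 member promoters, with Kdm3a kept and Kdm2b lost. Pol II was called at 5 member promoters in Veh (Kdm5a, Kdm2a, Kdm4a, Kdm4c and Kdm3a) and at 3 in GSK (Kdm5a, Kdm4c and Kdm3a), beside 29.3% and 24.9% of genes. The Pol II peaks found in Veh only, 4.53-fold at Kdm2a and 6.08-fold at Kdm4a, belong to a class that took in 7.33% of all genes, which is 25.0% of those with a Veh peak.

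Kdm5a starts at chr6:120364099 on the plus strand and shares its promoter with the divergent gene Ccdc77, so peaks there cannot be assigned to either gene. Its LSD1 peak lay over exon 1, with 6.08-fold enrichment and −log10 p 14.2 in Veh and 8.17-fold and −log10 p 21.3 in GSK. It was the strongest LSD1 promoter peak of GSK among the members, and at the 96.3rd percentile of all GSK LSD1 peaks by fold. H3K4me3 at this promoter was 4.17-fold in Veh and 4.30-fold in GSK. H3K27ac was 4.13-fold in Veh and 4.44-fold in GSK, while its −log10 p was 11.8 and 7.45. Pol II was 7.00-fold in Veh and 5.76-fold in GSK. The active promoter was therefore called with all 4 of these antibodies in both treatments, with no H3K4me1 or H3K4me2 peak in either.

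Beyond the 3′ end of Kdm5a, an H3K4me1 domain lay at 120452476-120455944 in Veh and at 120452513-120455919 in GSK. It held 2 LSD1 peaks in Veh, of −log10 p 9.66 and 12.4, and 1 in GSK, of −log10 p 9.38 at the position of the second. The LSD1 peak at 120453096-120453447, whose sequence is the first printed above, had no GSK counterpart within 1 kb. A GSK Pol II peak of 3.68-fold overlapped that position, and no Pol II peak was called there in Veh. A further H3K4me1 peak, 1.36 kb upstream of the Kdm5a start, was called in GSK only at 3.90-fold.

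Kdm5b starts at chr1:134560178 on the plus strand. The strongest LSD1 peak of this locus was not at its start but 3.81 kb upstream, with 7.18-fold enrichment and −log10 p 22.5 in Veh and 4.78-fold and −log10 p 12.6 in GSK. At the start itself LSD1 was 4.56-fold in Veh and 3.92-fold in GSK. All 3 H3K4 methylation marks were called at the upstream site in both treatments. H3K4me1 there was 4.22-fold in Veh and 3.74-fold in GSK. H3K4me2 was 3.89-fold and 5.04-fold, and H3K4me3 was 3.33-fold and 3.12-fold. The marks lay in order along the site, H3K4me1 farthest from Kdm5b (centred 4.12 kb upstream in Veh), then H3K4me2 (3.63 kb) and H3K4me3 (3.42 kb). A Pol II peak of 3.79-fold was called there in GSK only. No curated, predicted or GENCODE transcript of Kdm5b starts inside it.

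At the Kdm5b promoter H3K4me3 was 4.26-fold with −log10 p 59.0 in Veh and 5.19-fold with −log10 p 88.6 in GSK, and only Kdm2a (−log10 p 80.6 in Veh and 103.6 in GSK) was likewise higher in GSK. The other 6 of 8 shared H3K4me3 promoter peaks had a lower −log10 p in GSK, beside 53.4% of all shared H3K4me3 promoter peaks. H3K4me2 was 3.98-fold in Veh and 3.49-fold in GSK. Neither H3K27ac nor Pol II was called at the Kdm5b start in either treatment. Inside the gene, the only distal peak of any list was a GSK H3K4me1 peak of 3.95-fold in intron 1, 23.0 kb from the start, where a predicted transcript begins at 134583115.

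**Figure D2:**
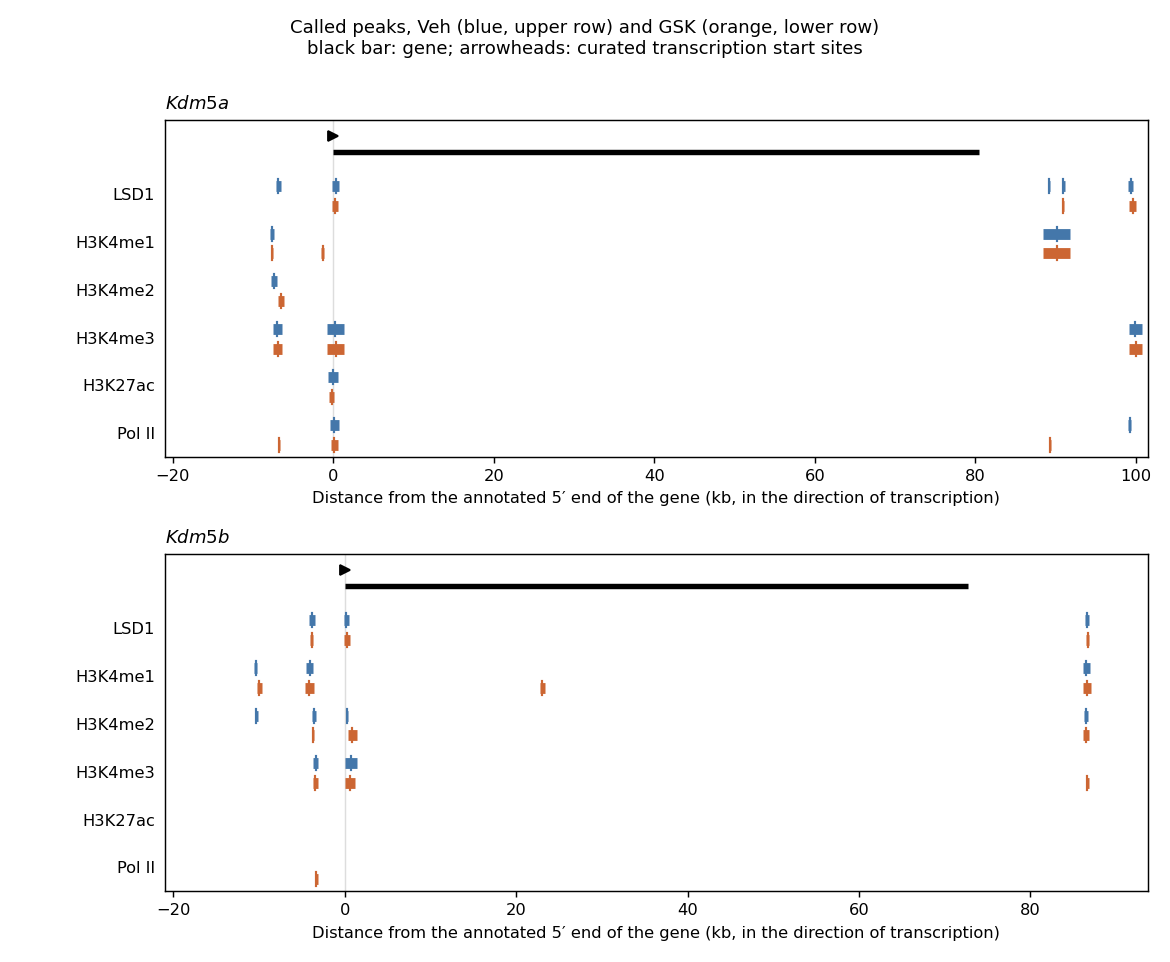
Called peaks along Kdm5a and Kdm5b with 20 kb on either side, by distance in kb from the 5′ end of the gene; bars are peaks to scale with a tick at their centre, Veh above GSK in each row. Both genes are nearly free of peaks between the start and the 3′ end, and the Kdm5b site 3.81 kb upstream has LSD1 and all 3 H3K4 marks in both treatments.

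Kdm2a lies on the minus strand of chromosome 19, with its curated TSS at 4397077. Its LSD1 promoter peak was the strongest of Veh among the members, 7.12-fold with −log10 p 21.4, and was 6.62-fold with −log10 p 19.3 in GSK. The summit lay 1.10 kb upstream of the TSS in Veh and 1.28 kb upstream in GSK, and the H3K4me2 peaks (4.75-fold and 5.23-fold) had their centres 0.946 kb and 0.982 kb upstream. H3K4me3, H3K27ac and the Veh Pol II peak were centred closer to the TSS, at 0.282 kb or less in either treatment. H3K4me1 lay farthest out, 1.29 kb upstream at 4.98-fold in Veh and 1.33 kb upstream at 4.56-fold in GSK, overlapping the LSD1 and H3K4me2 peaks. A GENCODE transcript starts there, at 4398285, so these distances hold for the curated TSS. A second, smaller LSD1 peak of 3.27-fold lay 0.424 kb downstream of the TSS in GSK only.

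Intron 12 of Kdm2a held a site with the peak content of a promoter, more than 60 kb inside the gene. H3K4me3 at 4332484-4333925 was 6.09-fold with −log10 p 102.9 in Veh and 5.83-fold with −log10 p 84.8 in GSK, stronger by fold than at the Kdm2a start (4.25-fold and 4.59-fold). LSD1 was 4.55-fold in Veh and 3.92-fold in GSK. H3K27ac was 3.48-fold in Veh and 5.20-fold in GSK, and Pol II was 5.46-fold in Veh and 5.12-fold in GSK. No other distal site of the 8 loci had Pol II and H3K27ac called in Veh as well as GSK, and Pol II was called there in GSK while its peak at the curated TSS was called in Veh only. A GENCODE transcript of Kdm2a starts at 4333919, within the H3K4me3 peak of Veh, and a predicted RefSeq transcript starts at 4334139. H3K4me1 peaks flanked the site on both sides in GSK only, at 4331917-4332199 (3.14-fold) and 4334195-4334661 (3.24-fold). The strongest GSK-only H3K4me1 peak of the locus, 4.47-fold with −log10 p 8.69, lay in the downstream flank at 4309666-4310311. In the flanks of Kdm2a, a weak LSD1 peak of 2.95-fold was called 11.4 kb upstream in Veh only and another of 3.03-fold near Grk2 in GSK only.

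Kdm2b is also on the minus strand, at chr5:122870664-122989270, with curated starts at its 5′ end and at 122900350 and 122900367 inside the gene. The internal start had LSD1 of 4.80-fold in Veh and 5.57-fold in GSK. H3K4me3 there was 5.65-fold and 4.80-fold, H3K4me2 was 4.52-fold and 4.81-fold, and H3K4me1 was 4.29-fold and 3.54-fold. The 5′ end, which faces the divergent gene A930024E05Rik, had a wide H3K4me3 peak of 3032 bp in Veh and 3433 bp in GSK, at 3.04-fold and 2.77-fold. LSD1 at the 5′ end lay in different positions in the 2 treatments. In Veh a 5.22-fold peak lay 1.53 kb upstream, in the promoter window of A930024E05Rik alone, and in GSK 2 peaks of 4.16-fold and 3.15-fold lay 0.167 kb upstream and 0.511 kb downstream of Kdm2b starts. The H3K27ac peak counted for Kdm2b reached its promoter window by 176 bases in Veh and by only 6 bases in GSK. No Pol II peak was called at Kdm2b or its flanks in either treatment.

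Intron 6 of Kdm2b carried a second group of peaks. An LSD1 peak at 122949185-122949560 was 6.85-fold with −log10 p 19.3 in Veh and 4.39-fold with −log10 p 8.83 in GSK. The next LSD1 peak, at 122951835-122952136, was 3.19-fold with −log10 p 5.29 in Veh and 3.92-fold with −log10 p 7.27 in GSK, so the pair differed between treatments in opposite directions. The latter coincided with H3K4me2 (4.99-fold and 5.07-fold) and H3K4me3 (4.94-fold and 4.88-fold) in both treatments and with the starts of a predicted transcript at 122951903 and a GENCODE transcript at 122951990. An H3K4me1 peak of 3737 bp in Veh spanned both LSD1 peaks, and the GSK peak of 2860 bp in GSK covered only the second. The Veh-only LSD1 peak of intron 12, 4.48-fold with −log10 p 6.38, had no other mark in either treatment.

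**Figure D3:**
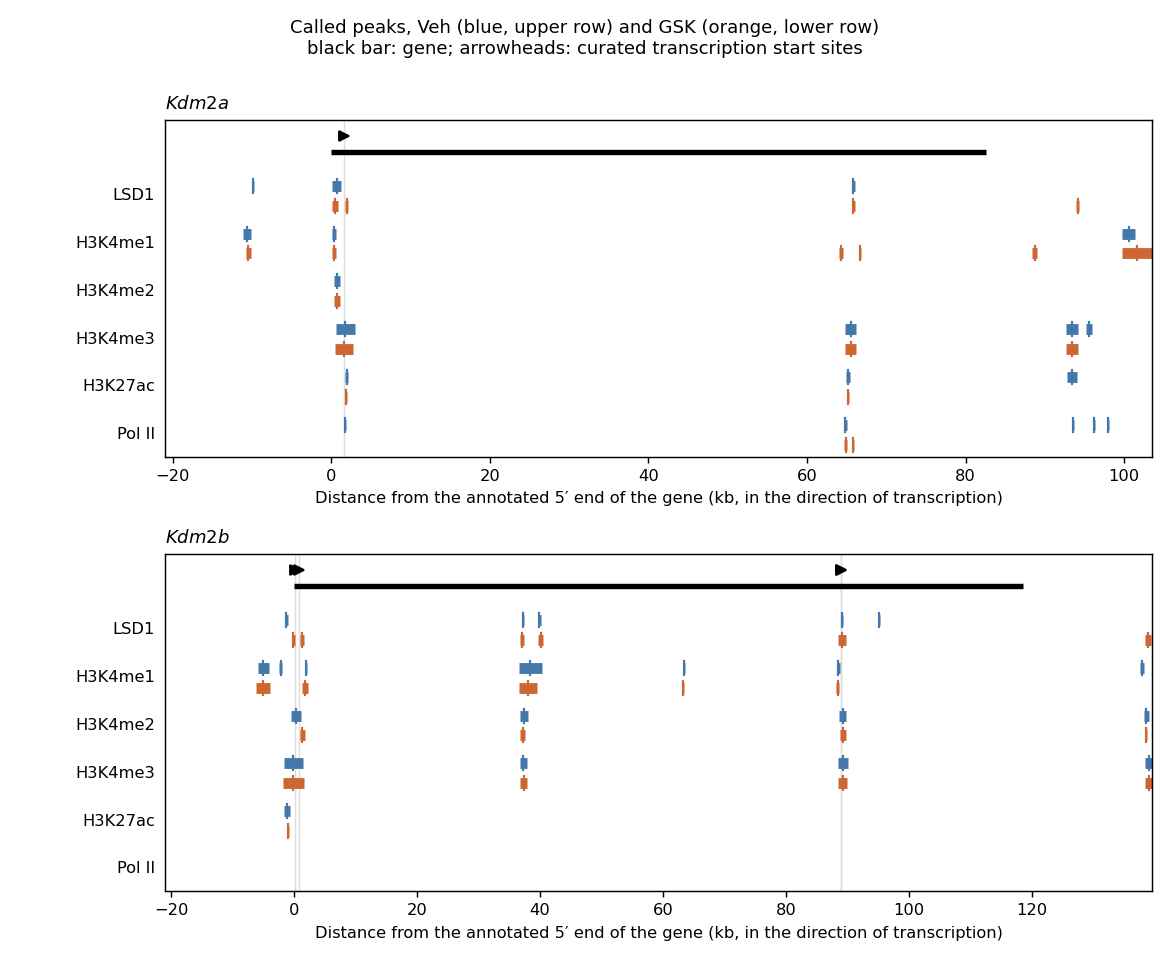
Called peaks along Kdm2a and Kdm2b with 20 kb on either side, by distance in kb from the 5′ end of the gene; bars are peaks to scale, Veh above GSK, and arrowheads mark curated start sites. Each gene has H3K4me3 and LSD1 peaks far inside it, in intron 12 of Kdm2a and in intron 6 and at the curated internal start of Kdm2b. Of these places, only the Kdm2a one had Pol II and H3K27ac.

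Kdm4a, on the minus strand of chromosome 4 with its TSS at 118180043, had LSD1 of 4.76-fold with −log10 p 8.0 in Veh and 6.84-fold with −log10 p 13.1 in GSK, just inside intron 1. H3K4me3 was 5.92-fold in Veh and 6.07-fold in GSK. Pol II, 6.08-fold in Veh, had no GSK peak, and the GSK-only H3K4me1 peak lay 0.782 kb upstream. The only distal mark in both treatments was an H3K4me1 peak in intron 9, 4.57-fold in Veh and 3.90-fold in GSK. A GENCODE transcript of Kdm4a starts inside it, at 118161657. No distal LSD1 peak was called at Kdm4a.

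Kdm4c, on the plus strand, has curated starts at chr4:74242497 and chr4:74251879, and every promoter peak was at the second. LSD1 was 5.01-fold in Veh and 5.94-fold in GSK. H3K4me3 was 6.76-fold with −log10 p 126.9 in Veh, the highest of the member promoters, and 6.65-fold with −log10 p 111.0 in GSK. Pol II was 6.44-fold and 6.97-fold. The rest of the locus held 1 peak, the Veh-only LSD1 peak of intron 2 (3.79-fold, −log10 p 4.67). Kdm4c was the only member with no H3K4me1 or H3K4me2 peak at its promoter or anywhere in its locus.

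Kdm6b was the exception to the promoter counts. Its curated TSS is at chr11:69416194 on the minus strand, and apart from the weak GSK H3K4me3 peak nothing was called there. The marks lay on either side of it. In intron 2, an H3K4me3 peak of 2921 bp in Veh and 2924 bp in GSK was 3.15-fold with −log10 p 39.7 and 3.11-fold with −log10 p 41.5, and 3 predicted RefSeq transcripts of Kdm6b start inside it. LSD1 in this domain was 4.60-fold with −log10 p 12.5 in Veh and 4.88-fold with −log10 p 13.2 in GSK, and this site and the weaker of the Kdm2b pair were the only shared distal sites with a higher LSD1 fold and −log10 p in GSK. H3K27ac was called in the domain in Veh only, at 3.12-fold. H3K4me2 lay in Veh at 69408189-69409513 and in GSK at 69410995-69411639, so each position was called in 1 treatment only. A Pol II peak of 3.46-fold lay next to the domain in GSK only. Weaker LSD1 peaks on either side of the shared one were also called in 1 treatment each, 2.63-fold in Veh and 2.61-fold in GSK.

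The other group at Kdm6b lay 1.67 to 3.13 kb upstream of the curated TSS, towards the 5′ end of the longest predicted transcript. H3K4me3 there was 2.60-fold with −log10 p 6.78 in Veh and 2.74-fold with −log10 p 9.03 in GSK, and H3K4me1 and H3K4me2 were also called in both treatments. LSD1 was called there in GSK only, at 3.53-fold with −log10 p 6.21. With predicted transcripts counted as starts, Kdm6b had LSD1 at a promoter in both treatments, and all 8 members did. For Kdm6b in Veh this came from predicted starts in intron 2 and not from the upstream group.

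Kdm3a, at chr6:71588970-71632990 on the minus strand, had the strongest single LSD1 peak of the 8 loci. It lay 5.59 kb upstream of the nearest TSS, with 9.0-fold enrichment and −log10 p 27.3 in Veh and 4.86-fold and −log10 p 8.17 in GSK. By fold it stood at the 97.5th percentile of all LSD1 peaks in Veh and at the 60.7th percentile in GSK. No H3K4me2, H3K4me3 or H3K27ac peak lay on it, and weak H3K4me1 peaks flanked it on both sides in both treatments. A Veh Pol II peak of 3.43-fold with −log10 p 4.48 overlapped it. At the Kdm3a promoter LSD1 was 6.77-fold with −log10 p 18.2 in Veh and 5.35-fold with −log10 p 12.2 in GSK. H3K4me3 was 5.48-fold and 5.38-fold, and Pol II was 4.96-fold in Veh and 5.62-fold in GSK.

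**Figure D4:**
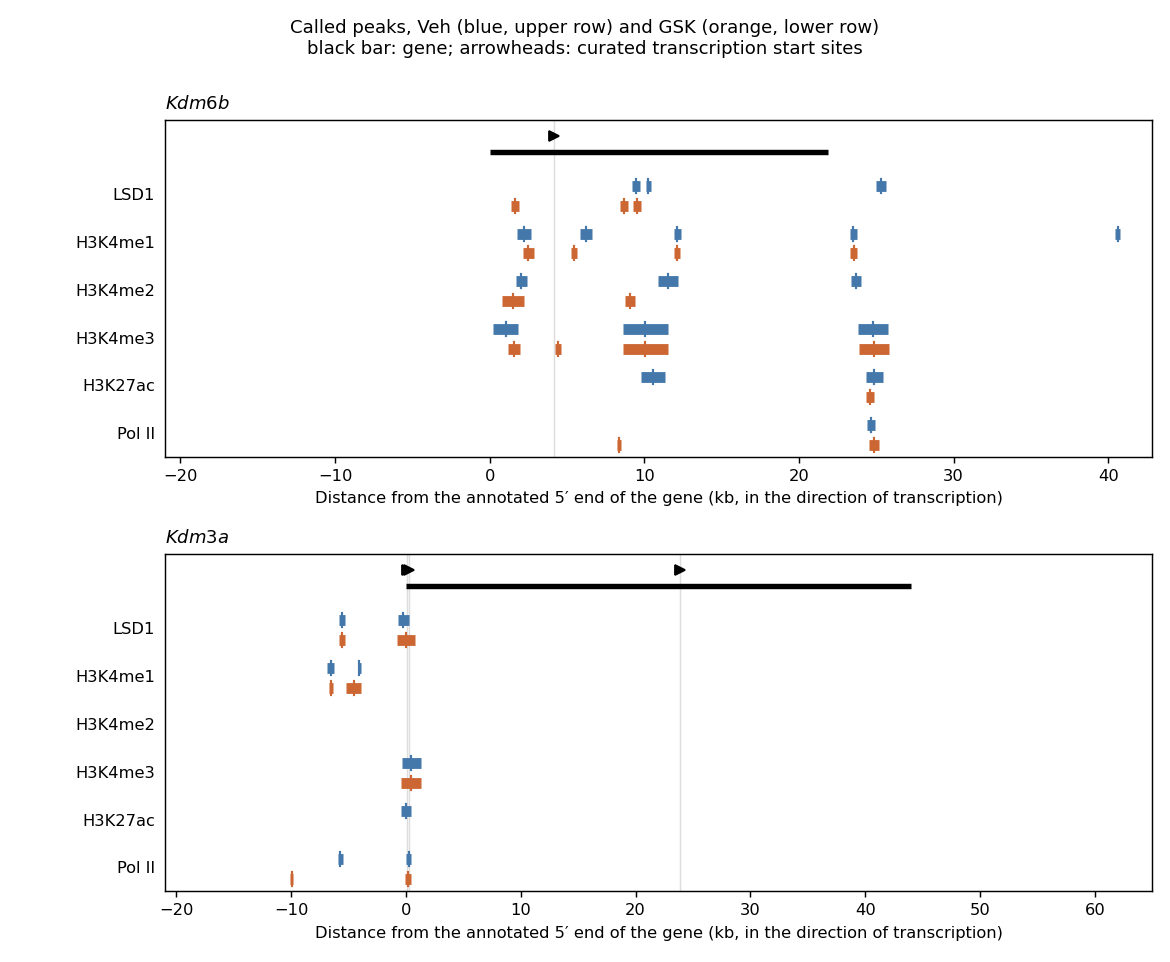
Called peaks along Kdm6b and Kdm3a with 20 kb on either side, by distance in kb from the annotated 5′ end of the gene, predicted transcripts included; bars are peaks to scale, Veh above GSK, and arrowheads mark curated start sites. The curated Kdm6b start has a single GSK H3K4me3 peak, with the other marks on either side of it, and the Kdm3a LSD1 site 5.59 kb upstream lies between H3K4me1 peaks.

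Over all distal sites of the 8 loci, 12 LSD1 peaks were called in Veh and 10 in GSK. Of the 12 Veh peaks, 7 overlapped a GSK peak, which is 58.3% (95% Wilson interval 32.0 to 80.7, counting error only), beside 37.3% of the distal Veh LSD1 peaks near any gene. Of the 10 GSK peaks, 7 overlapped a Veh peak, beside 46.3% near any gene. The 7 shared sites included the 5 strongest distal LSD1 peaks of Veh, and the 5 Veh peaks with no overlap had −log10 p of 3.25 to 9.66. Among the shared distal sites, 5 of 7 had a lower −log10 p in GSK, near the 61.7% of all shared distal LSD1 sites. The exceptions, in Kdm6b intron 2 and the weaker of the Kdm2b pair, each held a predicted transcript start of their gene. The other shared distal LSD1 peaks held none. At the shared promoter sites 3 of 7 (Kdm5b, Kdm2a and Kdm3a) had a lower −log10 p in GSK, beside 31.2% of all.

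**Figure D5:**
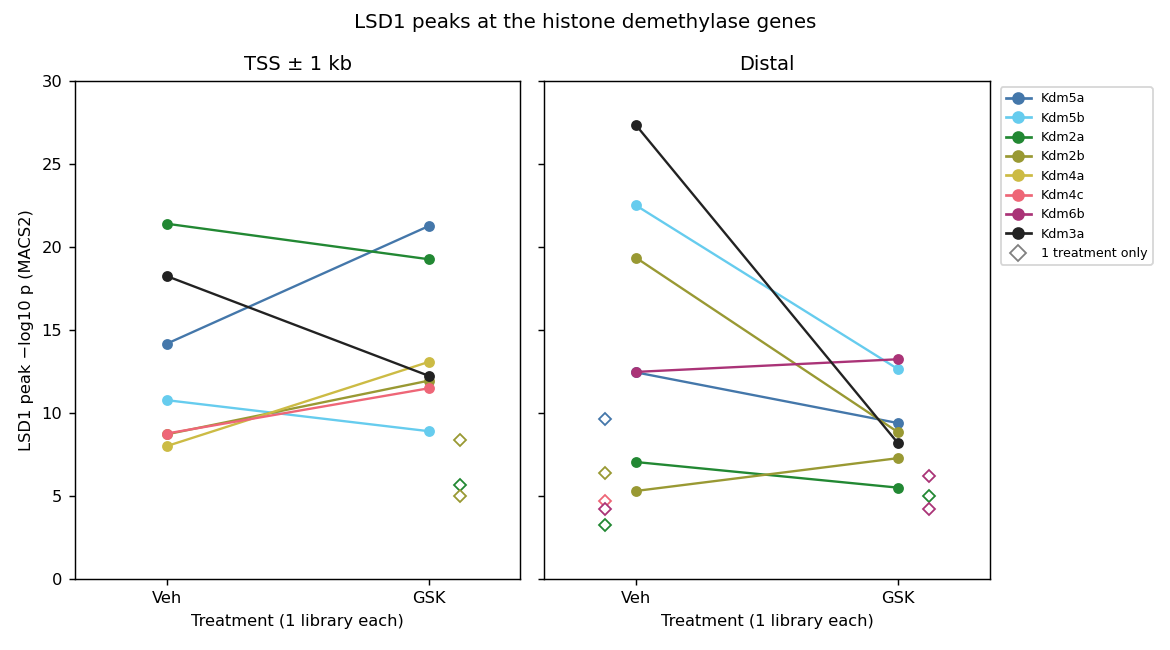
−log10 p of each LSD1 peak in Veh and GSK at promoters (left) and distal sites (right) of the 8 genes; lines join a Veh peak to the strongest GSK peak overlapping it and open diamonds are peaks called in 1 treatment only, drawn beside that treatment. The Kdm3a, Kdm5b and stronger Kdm2b distal sites lie between 19.3 and 27.3 in Veh and between 8.17 and 12.6 in GSK, and the promoter lines cross.

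Distal H3K4me1 was the most frequent kind of peak at these genes, with 16 in Veh and 19 in GSK. Of the Veh peaks 13 overlapped a GSK peak (81.2%, interval 57.0 to 93.4), beside 87.7% of distal Veh H3K4me1 peaks near any gene, and of the GSK peaks 13 overlapped a Veh peak, beside 75.6%. The 6 GSK-only peaks were 3 at Kdm2a and 1 each at Kdm5a, Kdm5b and Kdm6b, with 2.25-fold to 4.47-fold enrichment. The 3 Veh-only peaks were 2 at Kdm6b (4.87-fold and 2.35-fold) and 1 at Kdm2b (2.67-fold). Of the shared peaks, 10 of 13 had a lower −log10 p in GSK, whereas 41.3% of all shared distal H3K4me1 peaks did. The GSK H3K4me1 library was the deeper of the pair by the read statistics of the study, and the part of depth in this was not tested.

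The remaining antibodies had few distal peaks at the members. H3K4me3 had 6 in Veh, of which 5 overlapped GSK peaks (92.4% near any gene), and 5 in GSK, all of which overlapped Veh peaks (78.1% near any gene). H3K4me2 had 4 in each treatment, and 3 of the Veh peaks, at Kdm5b, Kdm2b and Kdm6b, overlapped GSK peaks, beside 38.7% of distal Veh H3K4me2 peaks near any gene. In the other direction 3 of the 4 GSK peaks overlapped Veh peaks, beside 81.8% near any gene. H3K27ac had 2 in Veh, of which the Kdm2a intron 12 peak overlapped a GSK peak and the Kdm6b intron 2 peak did not, beside 28.3%. Pol II had 5 in Veh, of which only the Kdm2a intron 12 peak overlapped a GSK peak, beside 18.2%. In the other direction 1 of the 6 GSK peaks overlapped a Veh peak, beside 17.3% near any gene. Most distal Pol II peaks of either treatment thus had no partner, and the GSK-only ones at Kdm5a, Kdm5b and Kdm6b are among these.

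For the other 16 histone demethylase genes, promoter LSD1 was called at 11 of 16 in Veh and 13 of 16 in GSK, among them Kdm1a itself (4.40-fold in Veh and 5.96-fold in GSK), and the GSK-only promoters were those of Kdm1b (4.26-fold), the LSD1 paralog LSD2, and Kdm4d (4.03-fold). H3K4me3 was called at 14 of 16 in each treatment, without Kdm5d and Uty, which lie on chromosome Y, where no list had a peak. H3K4me1 was called at 4 in each treatment. H3K4me2 was called at 9 in each, with Phf2 (4.06-fold) in Veh only and Kdm6a (4.15-fold), the H3K27me3 demethylase UTX, in GSK only. H3K27ac was called at 8 in Veh and 5 in GSK, and the 3 Veh-only promoters were Jmjd1c (3.88-fold), Kdm3b (3.70-fold) and Kdm8 (5.16-fold). Pol II was called at 9 in Veh and 7 in GSK. The Veh-only promoters were Jmjd1c (4.83-fold), Kdm1b (4.83-fold), Kdm3b (3.01-fold) and Kdm8 (4.40-fold), and the GSK-only ones were Phf2 (3.81-fold) and Kdm4d (4.64-fold). Jmjd1c, Kdm3b and Kdm8 thus had both H3K27ac and Pol II called at the promoter in Veh only. Kdm3a had H3K27ac in Veh only and Pol II in both. Among all genes with a Veh promoter peak, 59.8% had none in GSK for H3K27ac and 25.0% for Pol II. The share of all genes with both in Veh only was not computed. Among all genes, promoter H3K4me2 was called in GSK only at 1.93% and promoter Pol II in GSK only at 2.94%. The other shares of all genes are those given above for the members.

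Over the 12 lists, the presence pattern at the promoter was widely shared for some members and rare for others. The pattern of Kdm5a, peaks in 8 lists, was that of 377 other genes. The pattern of Kdm5b, 6 lists, was that of 243 genes, and that of Kdm3a, 7 lists, was that of 223. Kdm2a (9 lists), Kdm2b (10 lists) and Kdm4a (6 lists) had patterns shared with 7, 6 and 10 other genes. That of Kdm4c (6 lists) was shared with 78 and that of Kdm6b (1 list) with 18. Measured by the Euclidean distance between fold-enrichment percentiles over the 12 lists, the genes nearest to Kdm5a and Kdm5b were H1f4 (distance 16.5 percentile units) and Asf1a (19.1). Oxsr1 was nearest to Kdm2a (46.3), Gm15912 to Kdm2b (34.8), Pop4 to Kdm4a (38.7), Ube2a to Kdm4c (25.4) and Txndc11 to Kdm3a (24.7). No nearest gene is named for Kdm6b, since genes with no promoter peak in any list tie for it.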

How the data were processed

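ChIP-seq was done on in vitro activated CD8+ T cells of OT1 mice. The study reports that the ChIP-seq was repeated, and the samples used here hold 1 library per antibody and treatment. Per the study's methods, uniquely mapped reads (Bowtie2, mm10) were freed of PCR duplicates. The authors ran MACS2 on each library against its input, with a p cutoff of 0.001. They also picked equal numbers of reads at random from libraries to compare signals. Whether peaks were called on those picked reads is not stated plainly. The deposited lists give each peak's fold enrichment over input, a ratio, with its −log10 p and −log10 q. Narrow peaks with summits were deposited for LSD1 and Pol II, where the summit's offset from the peak start is the remaining deposited value. Broad peaks were deposited for the histone marks, which all have −log10 q above 3. The lists give no reads, so the depth behind a peak is unknown here. All 214352 peaks fell within the chromosome lengths of GRCm38.p6, the assembly of mm10, and RefSeq curated transcripts of that assembly gave 26180 genes. Peaks and windows overlapped by at least 1 bp, with coordinates counted from 1. Shared peaks overlap between treatments, and the strongest overlapping GSK peak gave the GSK value. Sequences came from the RefSeq assembly (pysam 0.24.0). Overlaps were computed with Python and tested on simulated intervals against bedtools 2.31.1. Intervals are Wilson intervals at 95% and cover counting error only. No test was run, since each group has 1 library. The 8 genes, the list of other histone demethylases and the motifs were chosen with earlier results of these data known. Most of the genes and peaks named follow fixed rules. These took in every member, and other demethylases with a promoter peak of LSD1, H3K4me2, H3K27ac or Pol II in 1 treatment only. They also took in the strongest distal LSD1 and single-treatment peaks of each member. Some peaks were instead named after their values were seen, such as the shared sites printed for Kdm5b, Kdm6b and Kdm2a. Kdm1a and the neighbouring genes were named besides. The alternatives tried were other TSS windows, flanks, overlaps, a −log10 p of at least 5, lists of equal length, and, chosen after seeing the data, predicted RefSeq transcripts and GENCODE M21.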

Additional observations from a re-analysis of the deposited data

How the results depend on the processing

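Of 77 alternatives over 11 results, 72 stayed close to the reported value and 5 moved. A count of promoters was taken as close within a fixed ratio, which 2 against 3 met. A share was taken as close inside the Wilson interval of the reported share. With so few peaks these intervals are wide, 9.45 to 90.5% for the 2 distal Veh H3K27ac peaks. Staying close therefore says little about robustness. The number of members with promoter H3K4me1 in GSK, 2 as reported against 1 in Veh, was 1 with a TSS window of 500 bp (1 in Veh), 5 with a window of 2.5 kb and 5 with predicted transcripts added (3 in Veh in both), and 3 with GENCODE M21 (4 in Veh). The number with promoter Pol II in GSK, 3 as reported, was 5 with predicted transcripts added, the same number as in Veh, and 4 with GENCODE M21. The share of distal Veh H3K27ac peaks overlapped in GSK, 50% of 2 peaks, was 0 when the overlap had to cover most of the peak. With H3K27ac lists of equal length no distal value could be given. LSD1 was called at 7 or 8 member promoters under every alternative tried. The share of distal Veh LSD1 peaks overlapped in GSK ranged from 38.9% with flanks of 50 kb to 77.8% among peaks with a −log10 p of at least 5. No paired analysis was possible because each antibody has 1 library per treatment and no test was made. With 1 library per treatment, differences between Veh and GSK cannot be told apart from differences between libraries in depth, efficiency or input.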
